A study of Mus musculus with 48 samples.

Results

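Penk, Pdyn, Tac1, Cartpt and Nts encode the precursors of the main neuropeptides of striatal projection neurons. They were taken by symbol from the deposited gene table, where all 5 had a row among 23420 genes. The striatum had been punched (3 mm, both sides pooled) from 16 mice aged about 50 days: 8 mice of a congenic line, labelled 112kb congenic, and 8 wild-type C57BL/6J littermates, with 4 males and 4 females in each genotype. As background on this line, the congenic segment comes from the DBA/2J strain and lies on chromosome 11. None of the 5 genes is on that chromosome. No mouse is labelled as treated, and the congenic mice carry their segment in every cell, so no cell type is singled out by the design. Each library was run on 3 lanes, and the 48 runs were summed to 1 value per mouse. Mice are named by the number in their column heading, Sample_4671 for example.

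Projection neurons make up most of the striatum and form 2 output routes. Neurons of the direct pathway carry the dopamine D1 receptor and make substance P and neurokinin A from Tac1 and dynorphins from Pdyn. Neurons of the indirect pathway carry the D2 receptor and make enkephalins from Penk. Cartpt encodes the CART peptides and Nts encodes neurotensin, both enriched in the ventral striatum (the nucleus accumbens), and Nts is also made in the septum. All are cut from larger precursors in secretory granules and are used as readouts of dopamine signalling and of drugs of abuse. Enkephalins, dynorphins, substance P, neurokinin A and neurotensin act on G protein-coupled receptors.

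In the gene table each mouse had 73.13 to 81.99 M counts in all (M for mega), with 118.46 to 133.15 M in a table of 368092 exon bins, where a bin is a stretch of exon shared by the same transcripts. The labels do not say whether the mice were separate litters or extractions. The punches held projection-neuron RNA: all 15 genes of that marker list were counted in all 16 mice, and in CPM, counts scaled to a common library total, they summed to between 14715.8 and 18080.1. Markers of neighbouring tissue were counted too: cortical excitatory neuron genes summed to 542.6 to 898.6 CPM, and 8 septal and pallidal genes to 41.0 to 109.5 CPM. Sample_4806, labelled a wild-type female, went against its label in part. Its Xist level was 2.73 CPM, where the other 7 females had 958.28 to 1535.21 CPM and the 8 males 1.32 to 17.31 CPM, while its 4 Y-linked genes summed to 0.09 CPM, below the 0.16 to 2.74 CPM of the other females. The tests of genes and the correlations between the precursors were repeated without this mouse.

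The peptides are written in the precursor genes as repeats of a short core, shown here for Penk, the most abundant of the 5. The enkephalin core is Tyr-Gly-Gly-Phe followed by Met or Leu, and its codons are in capitals. The coding sequence of Penk, 268 codons, held 7 in-frame copies, 6 that end in Met and 1 in Leu. The stretch is from the NCBIM37 genome, 5′ to 3′ on the minus strand, at chr4:4061220-4061495, and holds 4 of the copies.
Penk: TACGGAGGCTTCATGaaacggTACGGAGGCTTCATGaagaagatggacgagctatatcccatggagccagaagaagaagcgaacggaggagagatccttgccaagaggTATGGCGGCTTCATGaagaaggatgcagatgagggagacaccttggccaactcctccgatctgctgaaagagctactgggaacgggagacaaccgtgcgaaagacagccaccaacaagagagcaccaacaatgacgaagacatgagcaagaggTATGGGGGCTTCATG

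Tac1 carries its 2 tachykinins on separate exons, which matters for the exon counts further on. The core Phe, any residue, Gly-Leu-Met occurs in exon 3 (substance P) and in exon 6 (neurokinin A), with its codons in capitals. Exon 4, of 45 bases, holds no copy and is absent from 1 of the 2 annotated transcripts. The exons are shown on the plus strand of NCBIM37, at chr6:7506684-7506780, chr6:7507216-7507260 and chr6:7509099-7509152.
Tac1 exon 3: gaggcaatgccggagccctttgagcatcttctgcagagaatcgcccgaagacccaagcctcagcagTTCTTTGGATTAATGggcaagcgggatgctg
Tac1 exon 4: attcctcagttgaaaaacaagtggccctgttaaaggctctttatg
Tac1 exon 6: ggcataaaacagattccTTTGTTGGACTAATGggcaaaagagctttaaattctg

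Expressed per kilobase of annotated exon, so that genes can be set side by side, the indirect-pathway precursor Penk was the most abundant of the 5 at 977 ± 90.8 CPM per kb (SD, n = 16 mice). Tac1 followed at 200 ± 14.02 CPM per kb, and the lowest mouse for Penk, 822 CPM per kb, was above the highest for Tac1, 234 CPM per kb. Pdyn (12.4 ± 1.96 CPM per kb), Nts (8.15 ± 2.58) and Cartpt (3.78 ± 1.77) were far lower. The lengths take in every annotated bin, also those with few reads, so the levels per kb depend on the annotation. In Penk, bins 4 and 5, of 332 and 185 bases, held at most 0.28% and 0.23% of its exon counts in any mouse. The ranges of Pdyn (8.62 to 14.97 CPM per kb), Nts (5.41 to 14.3) and Cartpt (1.13 to 8.65) each overlapped the next in this order. Taken mouse by mouse, Nts was above Cartpt in every mouse. Pdyn was above Nts in most mice but below it in Sample_4673 and Sample_4753. The place of Pdyn depends on the table. Summed over its exon bins, as CPM of the exon table per kb, Pdyn stood at 22.2 ± 3.49 with a lowest mouse of 15.4, above the highest for Nts, 13.0. The gene-table count of Pdyn was 34.2% of the sum of its exon bins, and 1.57% of 12307 well-counted genes had a lower ratio (median 68.04%). The 2 measures of Pdyn moved together over the mice (r = 0.964 on the log2 scale), so the gap touches its level more than its comparison between mice. Its cause was not tested.

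The precursors also differed in how much they varied from mouse to mouse. Tac1 was the steadiest, with a coefficient of variation of 7.50% after scaling of the libraries by edgeR's TMM method, below the median of 8.98% over 16716 tested genes. Penk varied by 10.4% and Pdyn by 16.8%. Nts (30.7%) and Cartpt (46.5%) lay far out: 89.8% and 96.3% of tested genes, in that order, varied less. Between the 3 lanes of a mouse the median coefficient of variation was 0.594% for Penk, 4.09% for Pdyn, 7.89% for Nts and 14.3% for Cartpt. Cartpt rested on 80 to 553 counts a mouse, against 102581 to 140241 for Penk, so its values are the least precise of the 5.

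**Figure D1:**
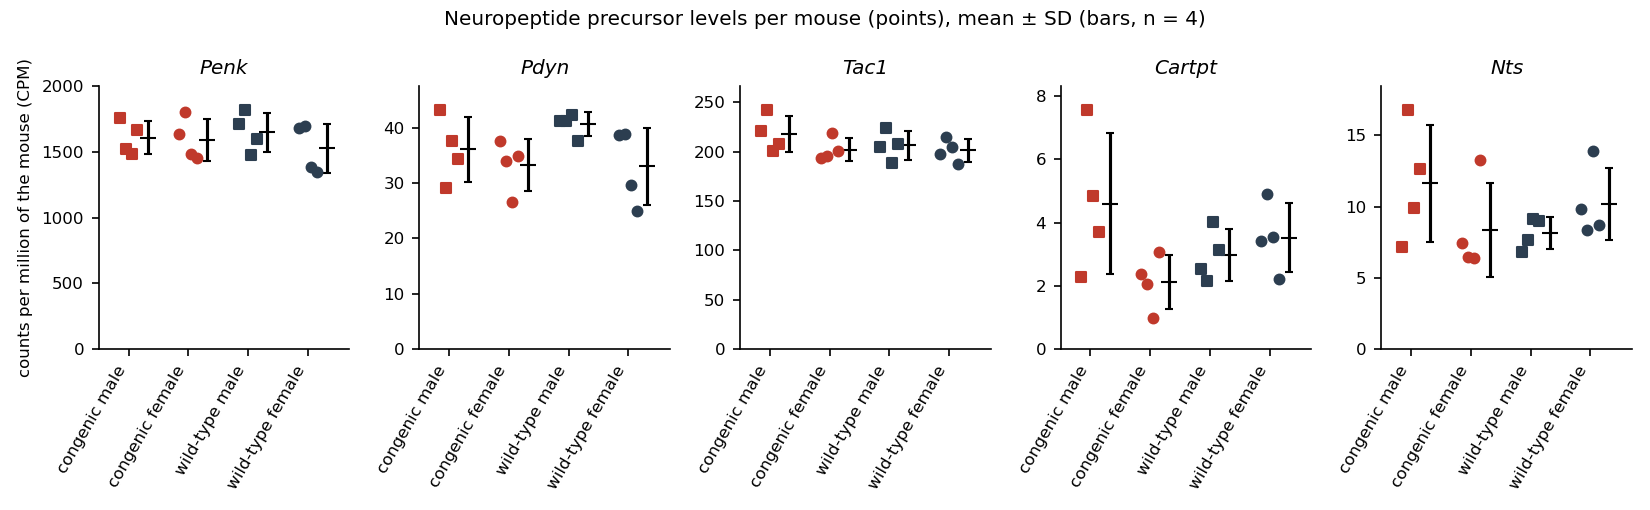
Level of each precursor gene in CPM (y axis, from 0) in every mouse, by genotype and sex. Points are mice, and bars are the mean ± SD of 4 mice. Genotypes overlap in all 5 panels; Sample_4673, a congenic male, is the highest point for Cartpt, Nts and Tac1.

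The first question of the design is whether the congenic segment changed the level of these genes. For Penk, which lies on NCBIM37 chr4:4060678-4065966, congenic mice had 1454 to 1801 CPM (median 1579) and wild-type mice 1344 to 1821 CPM (median 1642). The genotypes overlapped almost fully. The log2 fold change, congenic minus wild-type, was 0.01 with a 95% interval of -0.13 to 0.16. The enkephalin precursor therefore showed no detectable difference, and the interval bounds any difference at those sizes.

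For Pdyn (chr2:129512301-129525580) the congenic mice had 26.6 to 43.2 CPM (median 34.6) and wild-type mice 24.9 to 42.4 CPM (median 38.8). The log2 fold change was -0.08, with an interval of -0.30 to 0.14. It was -0.14 without Sample_4806, -0.03 without Sample_4673, and -0.20 without 3 females, Sample_4753, Sample_4804 and Sample_4806 (unadjusted p 0.0394, adjusted p 0.780 by edgeR). Its size thus depended on single mice, and no setting gave a call. For Tac1 (chr6:7505071-7512973), levels were 193 to 242 CPM in congenic mice (median 204) and 188 to 224 CPM in wild-type mice (median 204). The 2 direct-pathway precursors thus overlapped between genotypes as well, and the log2 fold change of Tac1 was 0.05 (-0.05 to 0.14), the narrowest interval of the 5.

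Cartpt (chr13:100668439-100670638) ranged from 0.985 to 7.56 CPM in congenic mice, with a median of 2.72, and from 2.16 to 4.91 CPM in wild-type mice, with a median of 3.27. Both its lowest and its highest mouse were congenic. Its log2 fold change was -0.04, with an interval of -0.71 to 0.63 that allows changes of either sign beyond 1.5-fold. Nts (chr10:101944394-101953052) ranged from 6.36 to 16.8 CPM in congenic mice (median 8.65) and from 6.84 to 13.9 CPM in wild-type mice (median 8.82). Its log2 fold change was 0.11 (-0.34 to 0.56).

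By edgeR's quasi-likelihood test with sex in the model, 0 of the 5 precursors passed a Benjamini-Hochberg adjusted p under 0.05, where 0% of all 16716 genes tested did. The adjusted p was 0.999 for each of the 5 with all mice. None of the 5 had an unadjusted p under 0.05 (256 of all genes did), the smallest being 0.353 for Tac1. DESeq2 and limma-voom also called 0 genes for genotype. In bulk tissue such as this, fewer cells of a type and less RNA per cell cannot be told apart.

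**Figure D2:**
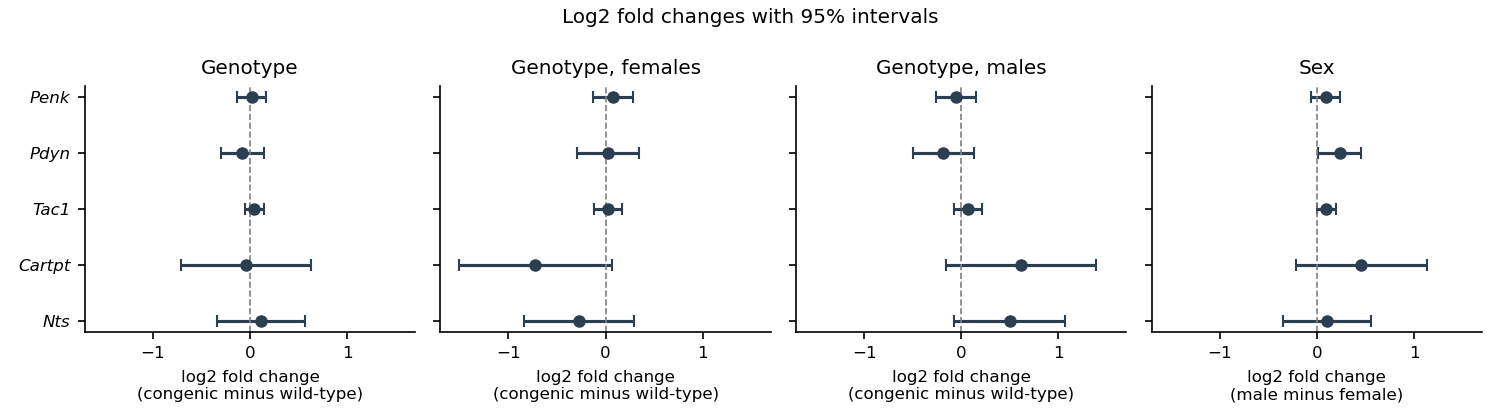
Log2 fold changes (x axis) of the 5 precursors with 95% intervals, for genotype over both sexes, genotype within females, genotype within males (congenic minus wild-type), and sex (male minus female). All genotype intervals include 0, and those of Cartpt and Nts are the widest.

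Between the sexes, all 5 log2 fold changes were above 0 (male minus female), from 0.09 for Penk to 0.46 for Cartpt, but 0 of 5 passed the test, where 0.138% of all genes tested did. By edgeR, 2464 of all 16716 genes tested had an unadjusted p under 0.05 for sex. Of the 5, Pdyn had the smallest p. Males had 29.1 to 43.2 CPM with a median of 39.4, and females 24.9 to 38.9 CPM with a median of 34.5. Male and female values overlapped, and the lowest male was Sample_4673. The log2 fold change of Pdyn was 0.23 (95% interval 0.01 to 0.46) with an unadjusted p of 0.0404 and an adjusted p of 0.320 by edgeR. Without Sample_4806, the female with little Xist and the least Pdyn, it was 0.17 (unadjusted p 0.0740, adjusted p 0.497). For Tac1 the difference was 0.10 (unadjusted p 0.0515, adjusted p 0.341 by edgeR), and 0.08 without that mouse. The difference of Cartpt was 0.25 without Sample_4673. That of Penk was 0.05 without Sample_4806 and -0.022 without Sample_4753, Sample_4804 and Sample_4806, so its sign was not stable.

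For Cartpt and Nts the fitted genotype difference had opposite signs in the 2 sexes. Cartpt was at 2.28, 3.71, 4.83 and 7.56 CPM in the 4 congenic males and at 0.985, 2.04, 2.38 and 3.07 CPM in the 4 congenic females. In wild-type mice it was at 2.16, 2.54, 3.13 and 4.03 CPM in males and at 2.23, 3.42, 3.53 and 4.91 CPM in females. The groups overlapped in each sex. The log2 fold change, congenic minus wild-type, was -0.72 in females (-1.51 to 0.07) and 0.61 in males (-0.16 to 1.39), and their difference was 1.34 with an SE of 0.52. By edgeR's test of that difference, its unadjusted p was 0.0213 and its adjusted p 0.967.

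Nts showed the same arrangement with a smaller difference. Congenic males had 7.19, 9.87, 12.6 and 16.8 CPM, and congenic females 6.36, 6.46, 7.43 and 13.3 CPM. Wild-type males had 6.84, 7.62, 8.96 and 9.13 CPM, and wild-type females 8.38, 8.67, 9.82 and 13.9 CPM. Again the groups overlapped, and in each female group 1 mouse stood well above the other 3, Sample_4804 and Sample_4753. The interaction was 0.77 (SE 0.37) with an unadjusted p of 0.0594 and an adjusted p of 0.967 by edgeR. Of the 5 precursors, 0 passed for the interaction, where 0% of all genes tested did, and 698 genes had an unadjusted p under 0.05. Without Sample_4673 the interaction was 1.01 for Cartpt (unadjusted p 0.0548) and 0.56 for Nts (unadjusted p 0.142). Other omissions moved it up. Without Sample_4671 it was 1.56 for Cartpt (unadjusted p 0.00503) and 0.94 for Nts (unadjusted p 0.0168). Without Sample_4753, Sample_4804 and Sample_4806 it was 1.80 for Cartpt (unadjusted p 0.00966) and 0.91 for Nts (unadjusted p 0.0125), and without Sample_4804 alone it was 1.07 for Nts (unadjusted p 0.00417). No adjusted p by edgeR passed in any of these. The interaction of Pdyn went from -0.21 to -0.08 without Sample_4806. Regional marker scores of the same mice are given further on, that of the ventral striatum by genotype and sex. Their part in these interactions was not tested.

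A second question is whether the peptides of the 2 pathways moved together over the 16 mice. Over the 10 pairs of precursors, levels were compared as log2 CPM after TMM scaling, with permutation tests of 100000 resamples and adjustment over the 10 pairs. Penk and Pdyn, one from each pathway, had a Pearson r of 0.70 (p = 0.00256, adjusted p = 0.0128, permutation test, n = 16), and a Spearman rho of 0.57 (p = 0.0245, adjusted p = 0.114, permutation test). Both were lowest in Sample_4806. Without it, r was 0.58 (adjusted p = 0.0769), and without the 2 mice farthest from the median of Penk, Sample_4806 and Sample_4753, it was 0.48 (p = 0.0804, permutation test). The pooled relation thus rested in part on those mice. Within the wild-type mice r was 0.84, and within the congenic mice 0.51.

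Penk and Tac1, the other pair across the pathways, had r = 0.43 (p = 0.0962, adjusted p = 0.240, permutation test, n = 16) and rho = 0.50 (adjusted p = 0.119). It was 0.81 within the 8 wild-type mice and 0.00 within the 8 congenic mice, a contrast that was not tested. Without the 2 farthest mice r was 0.22. Sample_4673, with the highest Tac1 at 242 CPM and Penk near the middle, pulled the pooled value down, and without that mouse r was 0.60. The 2 precursors of the direct pathway, Pdyn and Tac1, had r = 0.12 (p = 0.650, adjusted p = 0.740, permutation test) and rho = 0.16, and r ran from -0.18 without Sample_4806 to 0.36 without Sample_4673. So precursors made in the same class of neuron were no closer to each other here than precursors of opposite pathways, though the difference between these correlations was not tested.

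Cartpt and Nts had the highest r of the 10 pairs, 0.73 (p = 0.00107, adjusted p = 0.0107, permutation test, n = 16), with rho = 0.74 (p = 0.00164, adjusted p = 0.0164). Both were highest in Sample_4673 and lowest in Sample_4739. Without those 2 mice, the farthest from the median of Cartpt, r was 0.54 (p = 0.0491, permutation test). Without Sample_4673 alone it was 0.61 (adjusted p = 0.0626). It was 0.84 in congenic and 0.37 in wild-type mice, and 0.88 in males and 0.60 in females. With Cartpt read from lane 3 and Nts from lane 4, so that each value rested on a single lane and on fewer counts, r was 0.58 (adjusted p = 0.0899).

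Nts gave an r below 0 with both opioid precursors, and neither passed over the 16 mice. Its r with Penk was -0.48 (p = 0.0584, adjusted p = 0.195, permutation test) and with Pdyn -0.29 (adjusted p = 0.563). Without Sample_4806 and Sample_4739, the 2 mice farthest from the median of Pdyn, the latter was -0.76 (p = 0.0014, permutation test). It was -0.95 in the 8 males (adjusted p = 0.0146, exact permutation test) and 0.02 in the 8 females, and the difference between the sexes was not tested. The other 4 pairs had r between -0.12 and 0.18, all with an adjusted p of 0.740. Within the 8 males r was -0.87 for Penk with Cartpt and -0.82 for Pdyn with Cartpt, against 0.12 and 0.58 within the 8 females, and these contrasts were not tested.

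**Figure D3:**
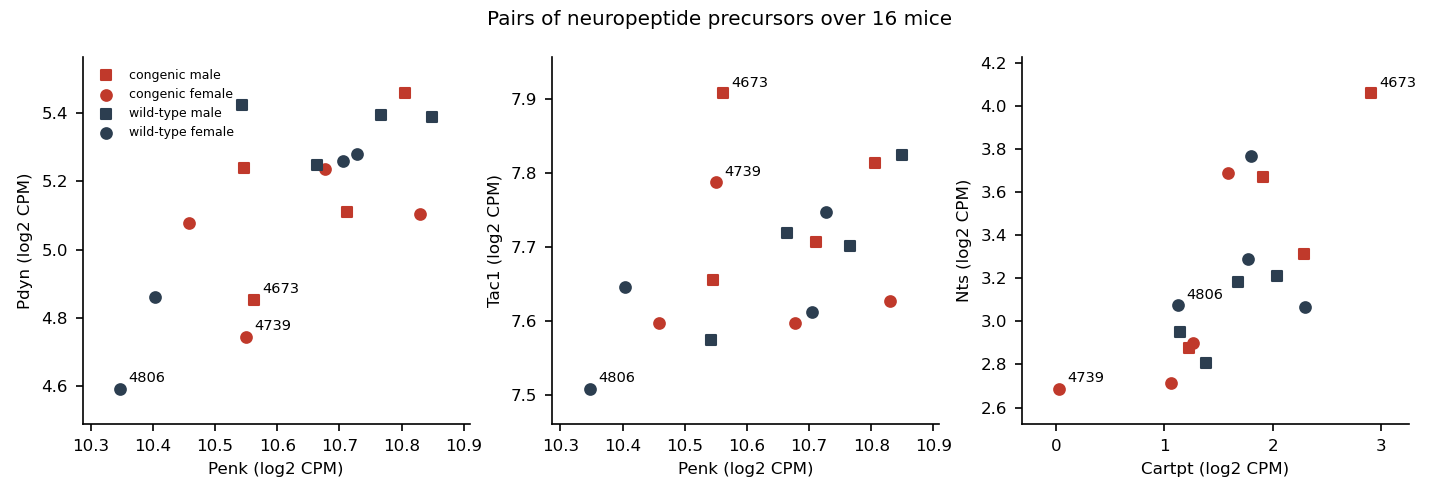
Each point is a mouse, with log2 CPM of 1 precursor on each axis, for Penk with Pdyn (r = 0.70), Penk with Tac1 (r = 0.43) and Cartpt with Nts (r = 0.73). Sample_4806 is the low corner of the first 2 panels, and Sample_4739 and Sample_4673 are the 2 ends of the third.

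The levels were then set beside marker scores of the same mice, the mean over a list of each gene's log2 deviation from its mean. Of 30 relations (5 precursors, 6 lists), 5 had an adjusted p under 0.05, and r ran from -0.56 to 0.88 over all of them. Cartpt followed the ventral striatum list most closely, with r = 0.88 (p = 3e-05, adjusted p = 0.0009, permutation test, n = 16), rho = 0.86, and 0.79 without the 2 mice farthest from the median score. Nts followed the same list at r = 0.71 (adjusted p = 0.0206), rho = 0.67 and 0.71 without the farthest 2. That list holds 9 genes, among them Crym, Wfs1, Peg10 and the dopamine D3 receptor gene Drd3, all counted in all 16 mice, and neither Cartpt nor Nts. Its summed level was 299.9 to 520.1 CPM in congenic mice and 365.4 to 478.5 CPM in wild-type mice. By group, the score was -0.17, 0.20, 0.31 and 0.32 in congenic males and -0.85, -0.25, -0.24 and 0.35 in congenic females. In wild-type mice it was -0.37, -0.16, 0.08 and 0.33 in males and -0.46, 0.19, 0.28 and 0.44 in females. The ventral score was lowest, -0.85, in Sample_4739, which had the least Cartpt and Nts. In Sample_4673 the score was 0.31 and the cortical score, at -0.79, was the lowest of all mice. How far the place of the punch set the levels of Cartpt and Nts was not tested.

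Of the lists for tissue beside the striatum, that for ependyma passed with Nts. Its r was 0.70 with ependymal genes (adjusted p = 0.0221; rho = 0.77; 0.60 without the farthest 2), which line the ventricle, and 0.62 with septal and pallidal genes, which did not pass (adjusted p = 0.0533; rho = 0.66). Sample_4804, the congenic female with 13.3 CPM of Nts, had the highest ependymal score, 0.87, and the lowest projection-neuron score, -0.21. The 8 measured ependymal genes, Foxj1 among them, were counted in all 16 mice and summed to 24.6 to 65.5 CPM in congenic and 26.6 to 53.0 CPM in wild-type mice. Their part in the Nts level was not tested.

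Penk and Pdyn went with the projection-neuron list, which holds Ptpn5 (the phosphatase STEP), Meis2 and Ppp1r1b (DARPP-32) and none of the 5 precursors. For Penk r was 0.74 (p = 0.00088, adjusted p = 0.0132, permutation test, n = 16), rho was 0.62, and r was 0.58 without the farthest 2. For Pdyn r was 0.65 (adjusted p = 0.0439), rho 0.70, and 0.59 without the farthest 2. After subtraction of the genotype-by-sex means, r was 0.73 for Penk and 0.48 for Pdyn, and these values were not tested. The 3 lowest projection-neuron scores were those of females, Sample_4804, Sample_4806 and Sample_4753, at -0.21, -0.18 and -0.11. Sample_4806, Sample_4753 and Sample_4804 were also the 3 lowest for Penk. Given that score, the partial correlation of Penk with Pdyn was 0.43 (adjusted p = 0.308). For Tac1 r with the same list was 0.52 (adjusted p = 0.139).

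A property of the libraries moved with the opioid precursors too. In each mouse, the slope of log2 CPM deviations on the GC content of the genes ran from -0.104 to 0.084 per 10 percentage points of GC. Pdyn had r = 0.78 with this slope (p = 0.00046, adjusted p = 0.0046 over 10 relations, permutation test, n = 16; rho = 0.62), and Penk r = 0.68 (p = 0.00428, adjusted p = 0.0214; rho = 0.60). The GC content of their transcripts, 51.93% and 52.73%, was close to the median of 50.57%. The 4 mice of lowest slope, Sample_4753, Sample_4673, Sample_4739 and Sample_4806, were the 4 lowest for Pdyn, and 3 of them are females. Given the slope, the partial correlation of Penk with Pdyn over all 16 mice was 0.37 (adjusted p = 0.378, permutation test), and that of Penk with Tac1 was 0.72 (adjusted p = 0.00935). The part of library composition in these relations was not tested.

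**Figure D4:**
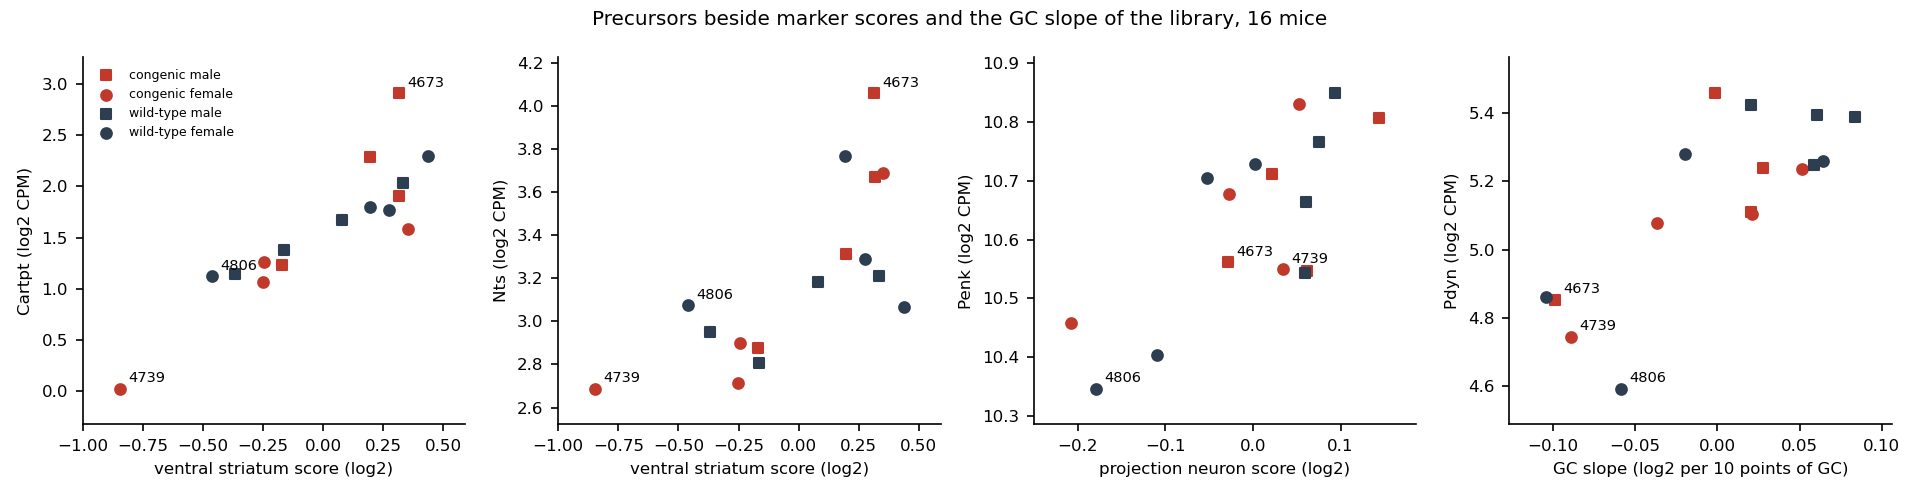
Points are mice. Cartpt and Nts in log2 CPM are drawn against the ventral striatum score (r = 0.88 and 0.71), Penk against the projection-neuron score (r = 0.74) and Pdyn against the GC slope of the library (r = 0.78). In the last panel the 4 mice of lowest slope are also the 4 lowest for Pdyn.

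Among all tested genes, those whose log2 CPM followed each precursor most closely over the 16 mice differed between the precursors. Penk was closest to Pde1b (r = 0.92), a calcium-dependent phosphodiesterase of striatal neurons that is also in the projection-neuron list, then to Fam110b, Camk2b, Arpc1a and Camkv (0.90 to 0.91). Farthest from it was Sc5d (r = -0.91), a sterol desaturase of cholesterol synthesis, then Zfp605 (-0.88). Pdyn was closest to Snrpa (r = 0.96), a U1 snRNP protein, then Map2k1, Por, Trappc9 and Trim28 (0.94 to 0.95), genes used in most cells, and farthest from Bet1 and Taf13 (both -0.92). Tac1 had no gene as close. Its nearest were Asb11 (0.80), Alcam (0.76), Kcnn2, D430036J16Rik and Klhl13 (all 0.75), and the opposite end was held by Napepld (-0.86) and Adcy6 (-0.80).

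For Cartpt the nearest genes were Hap1 (0.83), which encodes huntingtin-associated protein 1, and Trhr (0.82), the receptor gene of thyrotropin-releasing hormone and a member of the ventral list, then Adck4, Zmynd10 and Celf6 (0.79 to 0.82). The opposite genes were Map6d1 (-0.82) and Lbh (-0.81). For Nts they were Megf6 (0.87), Arhgap6 (0.87), Fbxw13 (0.86), Ralyl (0.85) and the potassium-channel partner gene Kcnip1 (0.85), with Ppfibp2 (-0.90) and Tie1 (-0.88) at the other end. Fbxw13 itself was counted at only 0.110 CPM. These genes were picked as the extremes of 16716, so their r values are a description.

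Because Cartpt and Nts gave the closest pair, the 250 bases before their annotated starts are shown, from RefSeq on GRCm38.p6, minus strand, at chr13:99900684-99900933 and chr10:102490419-102490668. Of the 5 genes, 4 had an entry in that table. Capitals mark matches to 3 motifs searched on both strands, the cAMP response element TGACGTCA, the related TGCGTCA, and the AP-1 site TGAGTCA.
Cartpt: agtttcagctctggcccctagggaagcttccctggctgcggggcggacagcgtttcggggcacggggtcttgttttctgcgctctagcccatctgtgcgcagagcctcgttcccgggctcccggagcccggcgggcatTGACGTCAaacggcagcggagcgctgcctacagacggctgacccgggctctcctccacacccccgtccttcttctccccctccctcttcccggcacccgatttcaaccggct
Nts: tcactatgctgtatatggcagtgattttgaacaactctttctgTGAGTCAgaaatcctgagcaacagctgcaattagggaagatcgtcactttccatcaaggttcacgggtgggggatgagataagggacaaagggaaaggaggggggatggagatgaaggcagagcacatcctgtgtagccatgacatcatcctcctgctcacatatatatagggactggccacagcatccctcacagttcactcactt

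The upstream sequence of Cartpt held the cAMP response element, 112 to 105 bases before its start, a motif found in 1.79% of 32851 promoter windows of 300 bases. That of Nts held the AP-1 motif, 207 to 201 bases before its start, found in 5.20% of windows. Tac1 held TGCGTCA, 199 to 193 bases before its start (2.12% of windows), and neither of the 2 Pdyn entries held any of the 3. The closest pair thus shared none of these exact motifs in this window. A match is a description of the sequence and no measure of binding.

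The series title names splicing, so the exon bins of the 5 genes were tested against the rest of their gene. Of their 27 bins, 26 were tested by edgeR's diffSpliceDGE, and the remaining bin, in the leader of Pdyn, was left out by the filter on low counts. With genes called by the Simes method, 0 of 5 precursors passed for genotype, where 0.00672% of 14875 genes did, and 0 of 5 for sex, where 0.128% did. By unadjusted Simes p, 73 genes were under 0.05 for genotype and 498 for sex, and none of these was one of the 5. By limma's diffSplice 0 of all genes passed for genotype. The smallest bin p for genotype was 0.353, for exon 4 of Tac1, with a log2 change of 0.06 against the rest of the gene. For sex it was 0.0294, for a leader bin of Pdyn of 450 bases at chr2:129523722-129524171. Its log2 change was 0.60 (male minus female), and the Simes p of Pdyn was 0.205. That bin held only 14 to 69 counts a mouse, at most 0.86% of the exon counts of Pdyn, and its p was 0.0522 by limma's diffSplice.

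In the other genes the smallest bin p for genotype was 0.445 in Penk (bin 5, leader), 0.690 in Cartpt (bin 2, coding) and 0.754 in Nts (bin 1, the last exon). Cartpt has a single annotated transcript, so its known alternative splice form could not be read from the bins. Tac1 does have an optional exon. Exon 4, the 45-base exon printed above, had 39.8% ± 2.37 (SD, n = 16) of the mean count of the neighbouring exons 5 and 6. The share ran from 37.6% to 43.9% in congenic mice (median 39.9%) and from 35.9% to 42.3% in wild-type mice (median 38.9%). The ranges overlapped in part: 2 wild-type mice lay below every congenic mouse, and 2 congenic mice above every wild-type mouse. Exon 6, which carries neurokinin A, had 120% ± 2.30 of the count of exon 5, from 116% to 125%. A read can fall in more than 1 bin and the exons differ in length, so these are ratios of counts and no measure of the share of transcripts that include an exon.

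**Figure D5:**
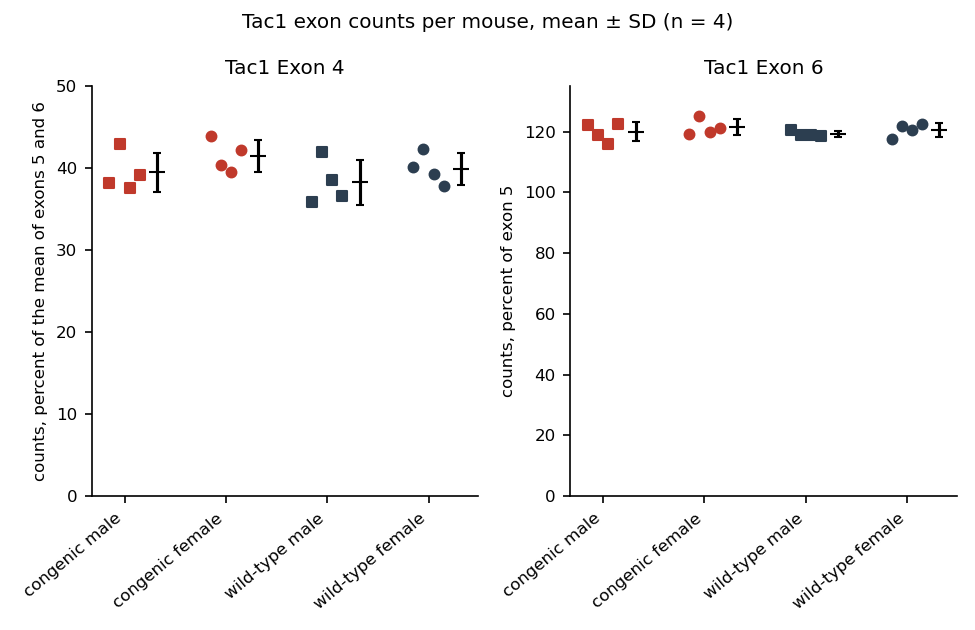
Counts of Tac1 exon 4 as a percent of the mean of exons 5 and 6, and of exon 6 as a percent of exon 5 (y axes, from 0), in every mouse by genotype and sex, with mean ± SD of 4 mice. Exon 4 lies between 35.9% and 43.9% in all 16 mice, with no gap between genotypes.

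The genes that process, sense and remove these peptides were read from the same fit. Of 19 genes for prohormone cutting and granule proteins, 0 were called in either direction for genotype or for sex, with a median log2 fold change of -0.03 for genotype (5 of 19 above 0), where the median of all genes was 0.00. The smallest p in that list for genotype was that of Ptprn2, a granule membrane protein (log2 fold change -0.08, p = 0.124, adjusted p = 0.999). For sex it was Pcsk1n (0.17, p = 0.00332, adjusted p = 0.168), the inhibitor of the convertase PCSK1, then the convertase Furin (0.16, adjusted p = 0.192) and the granin Vgf (0.34, adjusted p = 0.229).

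Of 9 tested receptors of the member peptides, 0 were called, and 1 of 9 was above 0 for genotype (median -0.06), where 51.1% of all tested genes were. Of 20 cortical excitatory neuron genes, 4 were above 0 (median -0.24), and the part of cortical tissue in the receptor values was not tested. The mu opioid receptor gene Oprm1 had the smallest p for genotype, with a log2 fold change of -0.26 (p = 0.0467, adjusted p = 0.999 by edgeR), and the kappa receptor gene Oprk1, which senses dynorphins, stood at -0.16 (p = 0.159). For sex the smallest was the neurotensin receptor gene Ntsr1 (-0.42, adjusted p = 0.261). Of 12 peptide-degrading enzymes, 0 were called, and the genotype changes of all of them lay between -0.16 and 0.05. Among 25 tested precursors of other neuropeptides 0 were called. Vip (-0.56, p = 0.0293, adjusted p = 0.999) and Agrp (-0.33, p = 0.0295, adjusted p = 0.999) had the smallest p for genotype, and Trh (0.32, p = 0.000396 and no call after adjustment) for sex.

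Other genes of the same neurons gave a like picture. For genotype, 0 of 8 direct-pathway genes (median -0.00), 0 of 8 indirect-pathway genes (median -0.02) and 0 of 15 shared projection-neuron genes (median 0.00) were called. For sex none of these was called either, while 8 of 8, 7 of 8 and 14 of 15 were above 0, with medians of 0.14, 0.09 and 0.10 where the median of all genes was -0.00 and 47.95% of them were above 0. Markers of other cells and tissue went both ways by sex. Above 0 were 4 of 20 cortical genes (median -0.36), 0 of 8 ependymal genes (median -0.24) and 1 of 8 oligodendrocyte genes (median -0.08). For septal and pallidal genes it was 3 of 8 (median -0.10), and for thalamic genes 1 of 8 (median -0.06). Astrocyte genes were split, with 4 of 8 above 0. Of 12 interneuron genes 10 were above 0 (median 0.12). So were 7 of 8 microglial genes (median 0.10) and 6 of 8 choroid plexus genes (median 0.22). The GC slope of the libraries was 0.021 ± 0.056 (SD, n = 8) in males and -0.021 ± 0.063 in females. The part of tissue make-up and of library composition in the sex values was not tested. Drd1a (0.13, adjusted p = 0.193) and Drd2 (0.16, adjusted p = 0.228), the receptor genes that define the 2 pathways, were among the pathway genes above 0 for sex. Of 22 activity-regulated genes, 0 were called, and 18 of 22 were above 0 for sex, with a median of 0.58 and Nr4a1 at 1.52 (p = 0.000744, adjusted p = 0.127). The activity score had r between 0.06 and 0.42 with the 5 precursors, and none of these passed the adjustment.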

How the data were processed

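Striatal RNA of 16 mice, 8 per genotype, was measured as counts per gene and per exon bin, which the authors deposited as raw counts for 48 runs, 3 per mouse. Per the submitters' processing notes, the tools were HTSeq 0.6.1p1, limma 3.22.7 and edgeR 3.8.6, on builds mm9 and mm10, without stating what each did; which aligner was used is not stated in these sources. The labels give both 50 bp single-end and 100 bp paired-end reads. Of bin numbers rebuilt from the NCBIM37 annotation, 97.56% of 16655 genes matched, so exon coordinates are on that build.

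Runs were summed per mouse. Genes passing edgeR's filter (minimum count 10, total 15) were scaled by TMM and tested with edgeR 4.0.16 (quasi-likelihood, R 4.3.3), with genotype and sex in the model and adjustment over all genes; a call needed an adjusted p under 0.05. DESeq2 1.42.0, limma 3.58.1, other scalings and filters, single lanes and fewer mice were alternatives. Log2 CPM used a prior count of 2. Exon bins were tested with diffSpliceDGE. Correlations used Python 3.11.15. Scripts were tested on simulated data. P-values weigh a group difference or a correlation against the variation between these mice. Permutations ran over all mice of a comparison, without regard to genotype or sex.

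The members, lists and tests were chosen with earlier results of these data known. The named genes are the 5 members, up to 4 of smallest p per list, the 5 nearest and 2 opposite genes of each member, and the exon bin of smallest p per member; Xist is named outside that rule. A sequence of 1 further member is not reported here.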

Additional observations from a re-analysis of the deposited data

Results flagged for a closer look

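Over 12 measures (the 5 precursors, the Tac1 exon 4 share and 6 marker scores), 72 groups of 4 or 8 mice were searched for a mouse that stands far from its group, measured as its gap to the next mouse over the whole range of the group. Nts gave both cases found. Sample_4753 was the highest of 8 wild-type mice at 13.9 CPM, with the next at 9.82 CPM. Sample_4804 was the highest of 4 congenic females at 13.3 CPM, with the next at 7.43 CPM. Chance marks about 1 in 20 such groups, and 2 of 72 were marked. Sample_4804 also had the highest ependymal score, 0.87. The part of that tissue in its Nts level was not tested.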

How the results depend on the processing

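The count of genes for genotype and for the interaction was 0 under every alternative run, mice left out one at a time included, and none of the 5 precursors was called for genotype, sex or interaction under any of them. For sex the 23 genes became 259 with DESeq2, 13 with the cortical score as covariate, 13 on lane 4 alone, 15 without Sample_4806, 11 without Sample_4753, Sample_4804 and Sample_4806, and 12 to 76 with mice left out one at a time. Exon use by genotype went from 1 gene to 0 with limma, with a minimum of 30 counts and without Sample_4806, and exon use by sex from 19 to 53 with limma and 7 without Sample_4806. The causes were not tested.

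Fold changes near 0 changed sign. For genotype, Penk was -0.016 without Sample_4806, -0.043 without Sample_4753, Sample_4804 and Sample_4806, and -0.021 to 0.043 with single mice left out; Cartpt was 0.20 on lane 3, 0.046 with no sex term, 0.0058 from exon-bin sums, and -0.25 to 0.12 with single mice left out. Without Sample_4673, Nts was -0.019 for genotype and -0.031 for sex, where the other single omissions reached 0.23 and 0.21. Without Sample_4753, Sample_4804 and Sample_4806, Penk for sex was -0.022 and the interaction of Pdyn 0.044.

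Penk with Pdyn (0.70) no longer passed as rho (0.57), without Sample_4806 (0.58), without 3 females (0.47), within congenic (0.51), wild-type (0.84), male (0.47) or female mice (0.77), given the projection-neuron score (0.43), the GC slope (0.37) or the first principal component (0.58), or without the 4 mice of lowest GC slope (0.30), which were also the 4 lowest for Pdyn, so that a lower r follows from their choice; single omissions gave 0.58 to 0.79. Penk with Tac1 was -0.00059 within congenic mice and 0.72, past the threshold, given the GC slope; single omissions gave 0.26 to 0.60. Cartpt with Nts no longer passed within congenic (0.84), wild-type (0.37) or female mice (0.60), from different lanes (0.58) or without the 4 mice (0.56); single omissions gave 0.61 to 0.79. Pdyn with Tac1 (0.12) was -0.059 on unlogged CPM, -0.18 without Sample_4806, -0.34 without 3 females, -0.073 as residuals, -0.34 within congenic and -0.45 within male mice, -0.33 given the projection-neuron score and -0.18 given the first component; single omissions gave -0.18 to 0.36. Pdyn with Nts (-0.29) was -0.76 without the farthest 2, 0.015 within females, 0.040 given the projection-neuron score and 0.078 given the GC slope. The GC slope, first component, exon-bin and 4-mouse settings were chosen after seeing the data.

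No paired analysis was possible because the genotypes share no replicate numbers. Counting limits Cartpt, at 80 to 553 counts a mouse; the other limits are the 8 mice per genotype, the mixed tissue of the punch and the unknown read layout and strand setting.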
